A study of Rattus norvegicus with 19 samples.

Results

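Nuclear oxidative phosphorylation subunits are those proteins of respiratory complexes I to IV, of the electron carrier cytochrome c and of ATP synthase (complex V) whose genes lie in the nucleus. The genes were picked by symbol alone: Nduf genes of the a, b, c, s and v series, Sdha to Sdhd, all Uqcr genes, Cyc1, Cycs, the Cox genes numbered from Cox4 to Cox8, and all Atp5 genes, without the Ndufaf assembly factors. This gave 84 of the 17455 genes counted, of which 36 belong to complex I, 4 to complex II, 9 to complex III, 17 to complex IV and 17 to complex V, and 1, Cycs, encodes cytochrome c. Ndufa4 was placed in complex I by its symbol, although its protein is now counted as a subunit of complex IV. An expression filter kept 82 of them among 12388 genes tested. Cox6c-ps1 had 0 counts in all 19 libraries, where up to 3 counts would still be possible, and Cox8c had at most 1 count in any library, so neither was tested. The symbols Cox7a1, Ndufa3, Ndufb1 and Ndufc1 fit the rule but were not among the genes counted. Subunits encoded by mitochondrial DNA were not found there either, under the names searched. All of these were thus not analysed here.

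Complexes I and II pass electrons from NADH and succinate to coenzyme Q, complex III hands them to cytochrome c, and complex IV gives them to oxygen. Complexes I, III and IV pump protons out of the mitochondrial matrix, and ATP synthase lets them flow back to make ATP. Heart muscle makes most of its ATP this way and is among the tissues richest in mitochondria, and transcription of the nuclear subunit genes there is driven by factors such as NRF-1, GABP, YY1 and the estrogen-related receptors with their coactivator PGC-1alpha.

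The study sequenced RNA of left ventricles from Sprague-Dawley rats that were 24 weeks old at the start. Heart failure with preserved ejection fraction (HFpEF) was induced for 5 weeks with L-NAME (0.5 g/L in the drinking water), which blocks the synthesis of nitric oxide, plus a diet with 60% of its energy from lard. Control 5w and HFpEF hearts (3 libraries each) were taken at that time. Induced rats were then gavaged daily for 4 weeks with phosphate-buffered saline alone (untreated, 3 libraries), with empagliflozin at 0.35 g/kg (EMPA, 2 libraries), with pirfenidone at 0.3 g/kg (PFD, 2 libraries) or with both at these doses (EMPA + PFD, 3 libraries), and control 9w hearts (3 libraries) came from rats without induction. The paper's discussion also speaks of a longer induction that covers the treatment weeks. It is thus not clear here whether L-NAME and the diet went on during the gavage. Empagliflozin inhibits the glucose transporter SGLT2 and pirfenidone is an antifibrotic drug. The authors left out 1 EMPA and 1 PFD sample. Each library held from 7430539 to 13017754 counts, with a median of 9951011, and levels are given as CPM, the counts scaled to a common library total after TMM normalization.

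Several libraries stood apart from their group in genes other than the subunits. The sequenced hearts are labelled male. Of the Y-linked gene Eif2s3y, 12 libraries held 613 to 1321 counts, and the other 7, which were HFpEF 1 and 3, every untreated library and both PFD libraries, held 0. Ddx3y, also Y-linked, had few counts and did not show this split. It had 6 and 10 counts in HFpEF 1 and 3, 11, 17 and 11 in untreated, 7 in each PFD library and 1 to 23 in the rest. RT1-CE16, a histocompatibility gene chosen after its values were seen, had at most 3 counts in the control 5w, HFpEF and EMPA libraries and 308 to 922 in the rest. Sln, an atrial gene, had 1387, 8 and 6975 counts in control 9w and 3, 6378 and 6 in untreated, so control 9w 1 and 3 and untreated 2 were far above the others. The 11 measured of 12 atrial markers summed to 6431, 858 and 26298 CPM in control 9w and 1319, 16409 and 1761 in untreated, led by Nppa in control 9w 1 and 3 and in untreated 2. Sums led by Nppa were also 8784 and 7092 CPM in control 5w 2 and 3 and 6945 in EMPA 2, all above control 9w 1. Control 5w 2 and 3 were the most alike of all pairs within a group. The chi-square per degree of freedom between their counts was 7.06, against 187 and 144 for their pairs with control 5w 1. In the other groups the lowest was 15.2, for control 9w 1 and 2. How far control 5w 2 and 3 are independent was not tested. The part of these differences in the results was not tested, except where values without the libraries are given.

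Marker levels of heart cell types also varied within groups. All 13 of 13 ventricular cardiomyocyte markers had counts in every library, and they summed to 116696, 56439 and 62245 CPM in control 5w, 18981, 31006 and 51359.9 in HFpEF, 51122, 58910.2 and 54716 in control 9w, 96854, 25138 and 87307 in untreated, 70759 and 56576 in EMPA, 96618 and 102006 in PFD and 113276, 138048 and 108488 in EMPA + PFD, with Myh6, Myh7, Actc1 or Mb the most abundant. HFpEF 1, untreated 2 and HFpEF 2 had the lowest sums, in that order, and EMPA + PFD had high sums in all its libraries. All 8 of 8 fibroblast markers were present in every library, and their sum was 4505, 44963 and 36468 CPM in control 5w and 17219, 9629 and 12721 in HFpEF and between 2095 and 8458 CPM in the 13 libraries of week 9. Control 5w 2 and 3 stood out, with Col3a1 as the most abundant marker. The 9 leukocyte markers, led by Lyz2, summed to 523, 1894 and 1511 CPM in control 5w and 2463, 495 and 1393 in HFpEF and stayed at or below 661 CPM at week 9. In such bulk samples, fewer cells of a type and less RNA per cell cannot be told apart, and this holds for every subunit level reported.

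Together the 84 subunit genes took up 5.83, 3.04 and 3.36% of the counts in control 5w, 1.93, 3.13 and 3.88% in HFpEF, 3.83, 4.59 and 3.63% in control 9w, 5.80, 2.43 and 5.27% in untreated, 4.97 and 3.97% in EMPA, 5.64 and 5.79% in PFD and 5.73, 5.77 and 5.64% in EMPA + PFD. Within control 5w, replicate 1 had the high share, and within untreated, replicate 2 had the low share, below every library but HFpEF 1. The spread was smallest in PFD and EMPA + PFD, where all 5 libraries held at least 5.64% of their counts in these genes. As group means with SD, the shares were 4.08% ± 1.53 in control 5w (n = 3), 2.98% ± 0.981 in HFpEF (n = 3), 4.02% ± 0.510 in control 9w (n = 3), 4.50% ± 1.81 in untreated (n = 3), 4.47% ± 0.706 in EMPA (n = 2), 5.71% ± 0.108 in PFD (n = 2) and 5.71% ± 0.0676 in EMPA + PFD (n = 3). The cardiomyocyte marker sums were low in the same libraries, HFpEF 1 and untreated 2, as the subunit shares.

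By complex, the mean share of complex I was 1.06% in control 5w, 0.830% in HFpEF, 1.19% in control 9w, 1.24% in untreated, 1.26% in EMPA, 1.52% in PFD and 1.47% in EMPA + PFD. The share of complex II was 0.223% in control 5w, 0.124% in HFpEF, 0.158% in control 9w, 0.216% in untreated, 0.186% in EMPA, 0.276% in PFD and 0.325% in EMPA + PFD. For complex III it was 0.472% in control 5w, 0.325% in HFpEF, 0.403% in control 9w, 0.487% in untreated, 0.485% in EMPA, 0.639% in PFD and 0.672% in EMPA + PFD. HFpEF had the lowest mean of the 7 groups in each of these complexes, and the highest was that of EMPA + PFD for complexes II and III and that of PFD for complex I. Complex IV averaged 0.625% in control 5w, 0.550% in HFpEF, 0.765% in control 9w, 0.744% in untreated, 0.785% in EMPA, 0.905% in PFD and 0.775% in EMPA + PFD. Complex V averaged 1.61% in control 5w, 1.11% in HFpEF, 1.45% in control 9w, 1.75% in untreated, 1.68% in EMPA, 2.27% in PFD and 2.36% in EMPA + PFD. The EMPA + PFD mean of complex IV lay below that of PFD and next to those of control 9w and EMPA, while for complex V it was the highest of all groups. Library by library, complex II took 0.0871, 0.127 and 0.157% of the counts in HFpEF, 0.156, 0.157 and 0.162% in control 9w, 0.294, 0.108 and 0.245% in untreated and 0.309, 0.342 and 0.323% in EMPA + PFD, so the 3 EMPA + PFD libraries lay above all libraries of those groups.

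**Figure D1:**
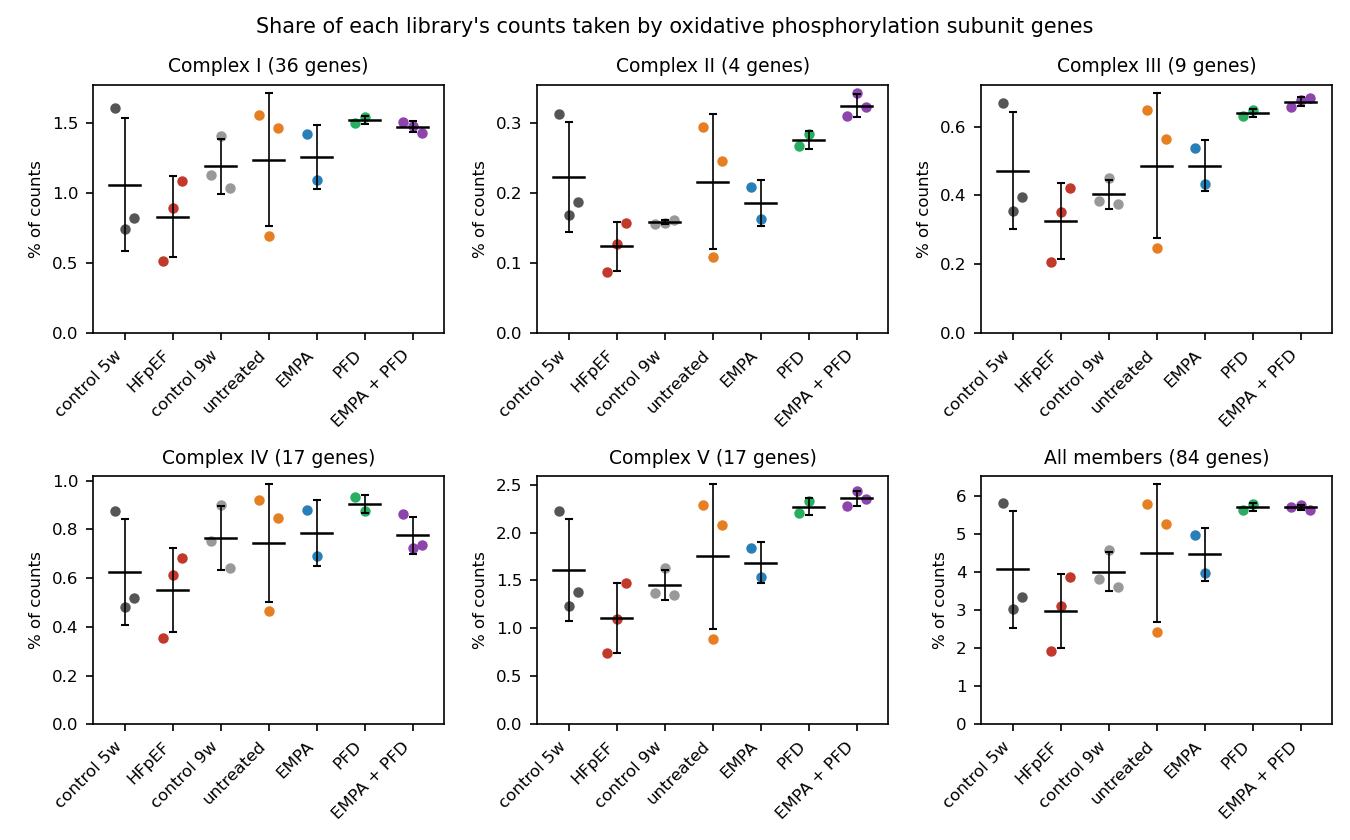
Share of each library's counts (%, vertical axis) held by the genes of complexes I to V and by all 84 members in the 7 groups; points are libraries, horizontal lines group means and bars SD (n = 3, or 2 for EMPA and PFD). Untreated 2 and HFpEF 1 lie low in every panel, and the PFD and EMPA + PFD libraries lie close together for all members.

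HFpEF was compared with control 5w to ask how the subunit genes stand after 5 weeks of L-NAME and diet. Eif2s3y had 1204, 1321 and 1211 counts in control 5w and 0, 855 and 0 in HFpEF. It thus splits these groups in part, and this split and the induction cannot be fully told apart. In edgeR, 4 of 82 members had lower levels in HFpEF at an adjusted p under 0.05, and 0 had higher levels, where 10.2% and 9.83% of all tested genes were called lower and higher. At an unadjusted p under 0.05 there were 14 of 82 members in both directions together, beside 4436 of 12388 genes, and DESeq2 called 7 (all genes 26.0%). The share called lower was thus below that of all genes. All 4 falls were at least 2-fold (background 4.41%). The median log2 fold change of the members was -0.50, against 0.022 for all genes, and 10 of the 82 had values above 0. In 9 members the HFpEF libraries lay wholly below those of control 5w, as they did in 19.1% of all genes.

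The 4 genes that fell encode parts of complexes I, II and III. Ndufa10l1, named for its likeness to Ndufa10 of complex I, fell by 3.06 log2 units (standard error 0.51, adjusted p = 0.00210). Sdha, the flavoprotein of complex II that oxidizes succinate, fell by 1.57 (standard error 0.36, adjusted p = 0.0104). Ndufs1, the largest iron-sulfur subunit of complex I, fell by 2.14 (standard error 0.50, adjusted p = 0.0106), and Uqcrc2, a core protein of complex III, fell by 1.43 (standard error 0.39, adjusted p = 0.0214). In all 4 genes each HFpEF library lay below each control 5w library. Uqcrc2 lost its call when control 5w 1 was left out (log2 fold change -1.09, adjusted p = 0.0852), when HFpEF 1 was left out (-1.23, adjusted p = 0.0751), when HFpEF 2 was left out (-1.40, adjusted p = 0.0652) and when control 5w and HFpEF were fitted alone (-1.43, adjusted p = 0.0719). Leaving out untreated 2, which is in neither group but enters the shared estimate of spread, raised the count from 4 to 13, with 25.3% of all genes called in that fit. The median of the members was -0.031 without control 5w 1 and -0.24 without HFpEF 1. By complex, the medians were -0.47 for complex I, -0.90 for complex II, -0.60 for complex III, -1.31 for Cycs, -0.31 for complex IV and -0.50 for complex V. The 13 cardiomyocyte markers had a median of -1.24, with 4 called lower. Of 8 endothelial markers 3 were called higher (median 0.69), as were 2 of 5 Schwann cell markers (median 2.21), while 2 of 11 atrial markers were called lower and 1 higher. Called in the other lists were 1 of 4 adipocyte and 1 of 7 skeletal muscle higher and 1 of 8 smooth muscle and pericyte and 1 of 7 skeletal muscle lower. Their part in the falls was not tested.

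**Figure D2:**
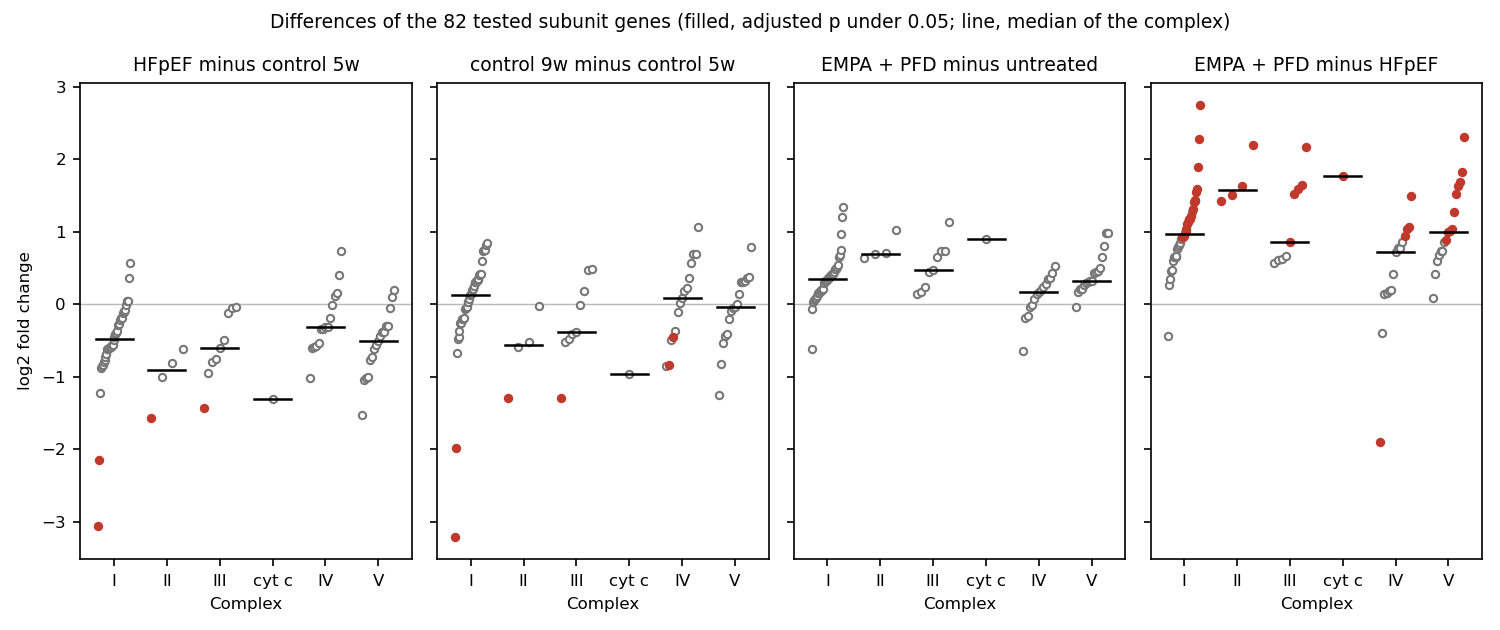
Log2 fold changes (vertical axis) of the 82 tested members by complex (horizontal axis) in 4 comparisons; filled points had an adjusted p under 0.05 and lines are medians of the complexes. In EMPA + PFD minus HFpEF 43 members lie above 0 as filled points and only Cox6b2 below it, while EMPA + PFD minus untreated has no filled point.

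The control groups of weeks 9 and 5 were compared as groups without induction. RT1-CE16 had 1, 0 and 0 counts in control 5w and 922, 825 and 913 in control 9w, and RT1-A3 and RT1-Bb split these groups alike, so this split and the 4 weeks cannot be told apart. Control 9w had 6 members lower and 0 higher in edgeR, where 17.2% and 17.3% of all genes were called. An unadjusted p under 0.05 was found for 12 of 82 members and 5626 of 12388 genes, and DESeq2 called 8 (all genes 38.6%). Of the 6, 4 changed at least 2-fold (background 7.21%). The median of the members was 0.011, near the -0.038 of all genes.

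Ndufa10l1 fell by 3.22 log2 units (standard error 0.52, adjusted p = 0.000656), and Ndufs1 fell by 1.98 (standard error 0.49, adjusted p = 0.00738). These falls went against the median of complex I, which was 0.13. Sdha fell by 1.29 (standard error 0.36, adjusted p = 0.0130) and Uqcrc2 by 1.30 (standard error 0.39, adjusted p = 0.0201). In complex IV, Cox6a1, the non-muscle form of a regulatory subunit, fell by 0.84 (standard error 0.24, adjusted p = 0.0158). Cox7a2l, a relative of Cox7a that takes part in joining complexes III and IV, fell by 0.45 (standard error 0.12, adjusted p = 0.0119). Both went against the complex IV median of 0.089. The other medians were -0.56 for complex II, -0.38 for complex III, -0.97 for Cycs and -0.034 for complex V. In all 6 genes the control 9w libraries lay wholly below those of control 5w, as they did in 11 of 82 members and 3065 of 12388 genes.

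This comparison leaned on single libraries. Without control 5w 1 there were 18 called members, 14 of them higher (all genes 34.4% in either direction), and the median was 0.47. Without control 9w 2 the count was 3 (all genes 20.9%), and without untreated 2 it was 10 (all genes 38.4%). Uqcrc2 was no longer called without control 5w 1 (-0.95), control 9w 1 (-1.25) or control 9w 2 (-1.24), Sdha (-1.23) and Cox7a2l (-0.42) without control 9w 2, and Cox6a1 (-0.46) without control 5w 1, all as log2 fold changes. Cox6a1 also lost its call when the control groups were fitted alone (-0.81, adjusted p = 0.0572). Without the 3 libraries rich in Sln, control 9w 2 alone stood for its group, and the value of Cox6a1 was -0.72. Ndufa10l1 and Ndufs1 kept their calls under every alternative. Of the 8 fibroblast markers 6 were called lower in control 9w (median -2.77) and of the 8 endothelial markers 7 were called higher (1.14). Of 9 leukocyte markers 5 were called lower (median -1.65). In the other lists the calls were 3 of 11 atrial, 1 of 8 smooth muscle and pericyte, 1 of 4 adipocyte and 2 of 7 skeletal muscle higher and 1 of 13 cardiomyocyte, 1 of 8 smooth muscle and pericyte and 2 of 7 skeletal muscle lower. Their part in the subunit differences was not tested.

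At week 9 the untreated group was compared with control 9w, and then with the HFpEF group of week 5. Neither comparison called a member in edgeR. Eif2s3y had 0 counts in all untreated libraries and 654, 613 and 741 in control 9w, and this split cannot be told apart from the disease effect at week 9. RT1-CE16 splits untreated from HFpEF, and there it cannot be told apart from the 4 further weeks. Against control 9w, 0 of 82 passed, beside 1.78% of all genes, and DESeq2 called 0 (all genes 6.65%). An unadjusted p under 0.05 was found for 4 of 82 members and for 2259 of 12388 genes. The median of the members was 0.074 (all genes 0.0051). Against HFpEF, 0 passed, beside 0.226% of all genes, and DESeq2 called 2 (all genes 7.75%). Here an unadjusted p under 0.05 was found for 17 of 82 members and 2817 of 12388 genes, so the members did not stand above all genes in this count. In this comparison 79 of the 82 members had values above 0, and their median was 0.61 (all genes -0.013). Both counts depended on untreated 2. Without it, 6 members were called against control 9w and 28 against HFpEF, 27 of these higher, where that fit called 8.22% and 14.5% of all genes. The median against HFpEF was then 0.92. Without the 3 libraries rich in Sln the count against HFpEF was 15 (all genes 8.53%). Against HFpEF all 13 cardiomyocyte markers had values above 0 (median 0.99), while the medians were -1.37 for fibroblast and -1.11 for leukocyte markers, and 3 of 4 erythroid markers were called lower (median -3.40). The 11 atrial markers had a median of 2.04 there, with 9 above 0. In edgeR 8 of them had an unadjusted p under 0.05 and 0 were called. Against control 9w the calls were 1 of 9 leukocyte higher and 2 of 4 erythroid lower. The part of these markers in the subunit values was not tested.

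The interaction term tested whether the difference between induced and control rats was the same at weeks 9 and 5. For 5 members it was higher at week 9, and for 0 lower, where 9.76% and 10.2% of all genes were called by edgeR. There were 19 of 82 members and 4374 of 12388 genes at an unadjusted p under 0.05, and DESeq2 called 11 (all genes 25.9%). The differences were 4.31 for Ndufa10l1 (standard error 0.72, adjusted p = 0.00231), 3.39 for Ndufs1 (standard error 0.69, adjusted p = 0.00570) and 2.47 for Sdha (standard error 0.51, adjusted p = 0.00597). For Uqcrc2 the difference was 2.33 (standard error 0.55, adjusted p = 0.0115), and for Atp5f1a, the alpha subunit of ATP synthase, it was 2.57 (standard error 0.74, adjusted p = 0.0256). In each of these 5 genes the HFpEF and the control 9w libraries lay below those of control 5w. The same 4 groups enter both the disease effects and the comparison of control groups, so the values are not independent. The split of Eif2s3y between untreated and control 9w enters this term and cannot be told apart from it. The partial split between HFpEF and control 5w enters it too. Without untreated 2 the count was 27 (all genes 29.9%), and it was 8 without control 5w 2 (16.5%) and 8 without HFpEF 3 (18.3%). Atp5f1a lost its call in 8 of 25 alternatives, and over all of them its adjusted p ran from 0.000774 to 0.0823. The 8 were the fit of the 4 groups alone (2.57) and leaving out control 5w 1, HFpEF 1 or 2, control 9w 1 or 2, or untreated 1 or 3, where its value ranged from 2.08 without untreated 1 to 2.57 without control 9w 2. The same term was higher for 4 of 13 cardiomyocyte markers (median 1.63) and lower for 3 of 4 erythroid (-3.43) and 2 of 8 endothelial markers (-0.97). In the other lists it was called for 1 of 11 atrial, 2 of 8 smooth muscle and pericyte and 2 of 7 skeletal muscle higher and 1 of 11 atrial and 1 of 4 adipocyte lower, and the part of the markers in the subunit values was not tested.

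EMPA, PFD and their combination were each compared with untreated to ask how treatment bears on the subunit genes. With EMPA and with PFD 0 of 82 members passed in edgeR, beside 0.0404% and 0.00807% of all genes, and 0 by DESeq2 (all genes 0.767% and 0.0404%). EMPA + PFD had 0 called members as well, while 12.1% of all genes were called, and 3 by DESeq2 (all genes 20.4%). The interaction of the drugs gave 0 members, beside 0.00807% of all genes, and 0 by DESeq2 (all genes 0.436%). At an unadjusted p under 0.05 there were 1 of 82 members with EMPA, 0 with PFD, 6 with EMPA + PFD and 1 for the interaction, where 1069, 646, 4055 and 1131 of 12388 genes were found, in that order. The medians of the members were 0.043 with EMPA, 0.41 with PFD and 0.34 with EMPA + PFD, where those of all genes were 0.0068, -0.017 and -0.032. Values above 0 were found for 50, 79 and 74 of 82 members, in that order, and the 3 comparisons share the untreated libraries. The 13 cardiomyocyte markers had medians of 0.54 with PFD and 0.80 with EMPA + PFD, all above 0 in both. Against untreated the calls with EMPA + PFD were 1 of 13 cardiomyocyte, 1 of 11 atrial and 1 of 4 erythroid higher and 2 of 11 atrial lower, and the part of the markers in the subunit values was not tested. All untreated libraries had 0 counts of Eif2s3y, while every EMPA and EMPA + PFD library had some, so this split and the effects of these treatments cannot be told apart. For EMPA against untreated the same holds for the split of RT1-CE16.

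In 20 members the EMPA + PFD libraries lay wholly above those of untreated, as they did in 18.7% of all genes. All 4 subunits of complex II were among the former. The members nearest to the threshold were Uqcrc2, with a log2 difference of 1.13 (standard error 0.39, adjusted p = 0.0671), Sdha with 1.02 (standard error 0.36, adjusted p = 0.0687) and Ndufs1 with 1.35 (standard error 0.48, adjusted p = 0.0755). By complex, the medians with EMPA + PFD were 0.35 for complex I, 0.70 for complex II, 0.47 for complex III, 0.90 for Cycs, 0.17 for complex IV and 0.32 for complex V. Without untreated 2 the median of all members was 0.055 in place of 0.34. Leaving out untreated 1 gave 5 called members and leaving out control 5w 1 gave 1, with 18.3% and 16.4% of all genes called. The member with an unadjusted p under 0.05 for EMPA, chosen after its values were seen, was Atp5if1, the inhibitor that binds ATP synthase, with a log2 difference of 0.67 (standard error 0.21, adjusted p = 0.348). It had 174, 125 and 216 CPM in untreated and 259 and 287 in EMPA, so the EMPA libraries were the higher ones without overlap.

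EMPA + PFD at week 9 was also set beside HFpEF at week 5, before treatment, a comparison that joins the drugs with 4 more weeks of time. RT1-CE16 splits these groups as well, with 3, 1 and 3 counts in HFpEF and 426, 308 and 720 in EMPA + PFD, and so do RT1-A3 and RT1-Bb. This split, the drugs and the time cannot be told apart. Here 43 of 82 members were higher and 1 was lower in edgeR, where 22.3% and 24.5% of all genes were called, and DESeq2 called 50 (all genes 50.2%). At least 2-fold higher were 36 members (background 10.7%). The EMPA + PFD libraries lay wholly above those of HFpEF in 67 members, beside 26.9% of all genes. The median of the members was 0.94, against -0.086 for all genes. Called higher were 19 of 36 members of complex I, all 4 of complex II, 5 of 9 of complex III, Cycs, 4 of 15 tested members of complex IV and 10 of 17 of complex V. The medians were 0.96 for complex I, 1.57 for complex II, 0.86 for complex III, 1.77 for Cycs, 0.72 for complex IV and 1.00 for complex V. The largest rises were those of Ndufs1 (2.76), Atp5f1a (2.30), Ndufa10l1 (2.29) and Sdha (2.20).

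The count of 44 rested on few libraries. It was 17 without HFpEF 1, 25 without HFpEF 2, 28 without EMPA + PFD 1 and 24 without EMPA + PFD 2, where 35.3%, 42.0%, 43.4% and 32.3% of all genes were called in either direction. The median without HFpEF 1 was 0.70. With the 7 libraries that had 0 counts of Eif2s3y left out, 22 members were called, 21 of them higher (all genes 27.4%), and only HFpEF 2 then stood for its group. A lone library is taken to vary like the other groups. Members that kept their calls under every alternative included Ndufs1, Ndufa9, Ndufa10, Ndufa10l1, Sdha, Sdhc, Sdhd, Uqcrc2, Uqcrfs1, Cycs, Atp5f1a, Atp5f1b, Atp5f1c and Atp5pb. Without the libraries that had 0 counts of Eif2s3y, those no longer called were Atp5f1d, Atp5mc1, Atp5mc2, Atp5mc3, Atp5md, Atp5pf, Cox4i1, Cox5b, Cox6b1, Cox6b2, Ndufa11, Ndufa4, Ndufb11, Ndufb4, Ndufb5, Ndufb8, Ndufc2, Ndufs3, Ndufs4, Ndufs7, Ndufs8, Ndufv2 and Uqcrh, with values from -1.46 for Cox6b2 to 1.48 for Atp5mc1. With the replicate number as a block Atp5f1d, Ndufa11, Ndufa4, Ndufb11, Ndufs7 and Ndufs8 lost their calls (from 0.93 for Ndufb11 to 1.14 for Ndufs7), and without a filter beyond 1 count Atp5f1d (0.95) and Ndufb11 (0.89) did. Of the 13 cardiomyocyte markers 10 were called higher (median 1.57), while 5 of 8 fibroblast markers (median -2.00) and 7 of 9 leukocyte markers (median -1.72) were called lower. Of the other marker lists, 1 of 8 endothelial, 3 of 8 smooth muscle and pericyte, 3 of 4 erythroid, 1 of 7 skeletal muscle, 1 of 11 atrial and 4 of 5 Schwann cell markers were called lower, and 2 atrial, 1 smooth muscle and pericyte, 1 skeletal muscle and 1 of 4 adipocyte markers higher. Their part in the subunit rises was not tested.

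Against control 9w, the control group of the same week, EMPA + PFD had 15 members higher and 0 lower in edgeR, beside 17.1% and 16.6% of all genes. An unadjusted p under 0.05 was seen in 22 of 82 members and 5500 of 12388 genes, and DESeq2 called 20 (all genes 37.5%). At least 2-fold higher were 14 (background 7.15%), and wholly above control 9w were 43 (background 24.7%). The 82 members had a median of 0.40 and all genes one of -0.078. Among those called were Ndufs1 (2.60), Ndufa10l1 (2.44) and Ndufa10 (1.72) of complex I, Sdha (1.92), Sdhc (1.23) and Sdhd (1.24) of complex II, and Uqcrc2 (2.03), Uqcrc1 (1.31) and Uqcrfs1 (1.23) of complex III, with log2 fold changes in parentheses. So were Cycs (1.43), Cox7a2l (0.41), Atp5f1a (2.03), Atp5f1b (1.40) and Atp5pb (1.64). Ndufs1, Ndufa10l1, Sdha, Uqcrc2 and Cox7a2l were also lower in control 9w than in control 5w, and the comparisons share the control 9w libraries. The count was 7 without control 9w 1 (all genes 22.7%), 8 without control 9w 2 (20.8%) and 9 without EMPA + PFD 2 (20.0%), and 39 when only these groups were fitted (all genes 39.1%). Without the 3 libraries rich in Sln, an alternative added after the data were seen, control 9w 2 alone stood for its group, so its own spread was not measured. The values of Atp5f1b, Cox7a2l, Cycs, Sdhd, Uqcrc1 and Uqcrfs1 then ran from 0.47 for Cox7a2l to 1.60 for Cycs. Ndufa10, Ndufa10l1, Ndufs1, Sdha, Uqcrc2, Atp5f1a and Atp5pb kept their calls under all alternatives. Atp5f1b, Cox7a2l, Cycs, Sdhc, Sdhd, Uqcrc1 and Uqcrfs1 lost theirs without control 9w 1 (0.39 for Cox7a2l to 1.39 for Cycs), and all of these but Atp5f1b without control 9w 2 (0.38 for Cox7a2l to 1.42 for Uqcrc1). Without EMPA + PFD 2, Cycs, Sdhc, Sdhd, Uqcrc1 and Uqcrfs1 were no longer called (1.13 for Sdhc to 1.37 for Cycs), and without EMPA + PFD 3 the same genes but Sdhc were not (1.25 for Uqcrfs1 to 1.46 for Cycs). Uqcrc1 and Uqcrfs1 lost their calls without EMPA + PFD 1 (1.28 for Uqcrfs1 to 1.37 for Uqcrc1) and, with Sdhd, without control 9w 3 (1.25 for Uqcrfs1 to 1.28 for Sdhd). Of 13 cardiomyocyte markers 4 were called higher (median 1.27), while 6 of 8 endothelial (-0.98), 6 of 11 atrial (-2.15) and 3 of 4 erythroid markers (-2.41) were called lower. The other calls were 1 of 11 atrial and 1 of 8 smooth muscle and pericyte higher and 1 of 7 skeletal muscle lower. Their part in the subunit rises was not tested.

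A test over all 7 groups at once found 11 of 82 members to differ between some groups, a smaller share than the 50.3% of all genes. They were Ndufa10l1, Ndufs1, Ndufa10, Sdha, Sdhc, Sdhd, Uqcrc2, Cycs, Atp5f1a, Atp5f1b and Atp5pb. DESeq2 called 24 members (all genes 64.1%). The count was 34 without control 5w 1, 30 without untreated 2, 7 without control 9w 1 and 5 without EMPA + PFD 2, where 55.0%, 55.9%, 39.7% and 38.2% of all genes were called.

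Complex I is built from a matrix arm that oxidizes NADH and passes electrons along iron-sulfur clusters, and a membrane arm with many accessory subunits. Among the subunits of the matrix arm, Ndufs1, Ndufs3, Ndufs7, Ndufs8, Ndufv1 and Ndufv2 were higher in EMPA + PFD than in HFpEF. Ndufs1 kept its call under every alternative, while Ndufs3, Ndufs7, Ndufs8, Ndufv1 and Ndufv2 lost theirs without HFpEF 1, with values from 0.82 for Ndufs8 to 1.27 for Ndufv1. Ndufs7 (1.18 and 1.13) and Ndufs8 (1.13 and 1.08) also lost theirs without EMPA + PFD 1 or 2, Ndufs8 without HFpEF 2 (1.11) or EMPA + PFD 3 (1.15), and Ndufv2 without HFpEF 2 (1.37) or EMPA + PFD 2 (1.36). Ndufs1 had 1335, 731 and 799 CPM in control 5w, 155, 149 and 344 in HFpEF, 219.6, 215 and 289 in control 9w, 883, 154 and 683 in untreated, 466 and 383 in EMPA, 900.0 and 945 in PFD and 1072, 1816 and 1487 in EMPA + PFD. HFpEF and control 9w were low in all their libraries, untreated 2 was as low as they were, and EMPA + PFD lay above HFpEF, control 9w, untreated, EMPA and PFD. In EMPA + PFD against HFpEF Ndufs1 rose by 2.76 (standard error 0.51, adjusted p = 0.00110).

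Ndufa10l1 had 1335, 892 and 882 counts in control 5w, 99, 91 and 183 in HFpEF, 71, 63 and 126 in control 9w, 345, 64 and 248 in untreated, 134 and 133 in EMPA, 294 and 376 in PFD and 403, 497 and 456 in EMPA + PFD. Control 5w stood above every other group, and the lowest libraries were those of control 9w, HFpEF 1 and 2 and untreated 2. Ndufa10 itself, an accessory subunit, had 485, 245 and 264 CPM in control 5w, 127, 170.2 and 252 in HFpEF, 188, 195 and 239.6 in control 9w, 527, 101 and 422 in untreated and 653, 749.7 and 648 in EMPA + PFD. Its HFpEF and control 9w libraries did not reach those of EMPA + PFD, and it rose by 1.90 against HFpEF (standard error 0.44, adjusted p = 0.00375). The ratio of Ndufa10l1 to Ndufa10 counts was 0.259, 0.282 and 0.265 in control 5w, 0.0558, 0.0490 and 0.0648 in HFpEF, 0.0425, 0.0397 and 0.0524 in control 9w, 0.0691, 0.0514 and 0.0619 in untreated and 0.0730, 0.0793 and 0.0736 in EMPA + PFD. Control 5w lay far above the other groups without overlap, with an exact two-sided permutation p of 0.1 against HFpEF, which is the smallest that 3 libraries against 3 allow (0.167 after Benjamini-Hochberg adjustment over 35 ratio tests, and no ratio test passed). How reads were shared out between both genes is not known, so the level of Ndufa10l1 is uncertain. Without it the counts were 3 falls in HFpEF, 5 in control 9w and 42 rises in EMPA + PFD against HFpEF. Of all genes, 10.2%, 17.2% and 22.3% were called in these directions, in that order.

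Ndufb11, an accessory subunit of the membrane arm, was the member that kept closest to the median of all members, with an SD of 0.0779 log2 units over 19 libraries. It had 476, 224 and 252 CPM in control 5w, 139.7, 247 and 332 in HFpEF, 483, 184 and 425 in untreated and 482, 472 and 422 in EMPA + PFD. HFpEF 1 and untreated 2 were low and EMPA + PFD was above HFpEF without overlap (0.94, adjusted p = 0.0470), a call lost in 16 of 26 alternatives. Ndufa4l2, an isoform relative of Ndufa4, was placed in complex I by symbol only, like Ndufa4. It was the member so placed with values below 0 in both EMPA + PFD comparisons, -0.62 against untreated and -0.44 against HFpEF (adjusted p = 0.239 and 0.323), and was chosen after its values were seen.

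The accessory subunits surround the core of complex I in both arms. Ndufa9, which lies at the joint between the arms, rose by 1.59 in EMPA + PFD against HFpEF (standard error 0.43, adjusted p = 0.00881) and kept its call under every alternative. Beside Ndufa10 and Ndufa10l1, the others called there, with Ndufa4 among them by symbol only, were Ndufa4, Ndufa11, Ndufb4, Ndufb5, Ndufb6, Ndufb8, Ndufb11, Ndufc2 and Ndufs4, from 0.93 for Ndufc2 to 1.31 for Ndufs4. Without HFpEF 1 each of these 9 lost its call, with values from 0.66 for Ndufb11 to 1.08 for Ndufs4. All of them but Ndufs4 lost their calls without HFpEF 2 (0.90 for Ndufc2 to 1.21 for Ndufb5) and without EMPA + PFD 2 (0.89 for Ndufc2 to 1.18 for Ndufb5), all but Ndufb6 and Ndufs4 without EMPA + PFD 1 (0.91 for Ndufa11 to 1.26 for Ndufb5), and Ndufa4, Ndufa11, Ndufb5, Ndufb8 and Ndufb11 without EMPA + PFD 3 (0.99 for Ndufa11 to 1.27 for Ndufb8). The members of complex I that did not pass had values from -0.44 for Ndufa4l2, placed there by symbol only, to 1.28 for Ndufs6.

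Complex II oxidizes succinate in the citric acid cycle and has no subunit encoded by mitochondrial DNA. Sdha, its flavoprotein, had 1177, 713 and 792 CPM in control 5w, 243, 255 and 407 in HFpEF, 353, 334 and 407 in control 9w, 997, 272 and 771 in untreated, 511 and 459.6 in EMPA, 902 and 1009.9 in PFD and 1149, 1664 and 1332 in EMPA + PFD. Each HFpEF library lay below each control 5w library, control 9w overlapped with HFpEF, and EMPA + PFD lay above untreated, EMPA and PFD. Against HFpEF it rose by 2.20 (standard error 0.37, adjusted p = 0.000676). Sdhb, the iron-sulfur subunit, had 770.4, 329 and 346 CPM in control 5w, 191, 294 and 457 in HFpEF, 443, 559.6 and 413 in control 9w, 742, 194 and 684 in untreated, 637 and 461 in EMPA, 741 and 759 in PFD and 865, 874 and 793 in EMPA + PFD. Its levels in control 5w 2 and 3 were within the range of HFpEF, so the groups overlapped, and EMPA + PFD was again above HFpEF (1.43, adjusted p = 0.0168), a call that was lost without HFpEF 1 (1.17, adjusted p = 0.0710).

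The membrane anchors Sdhc and Sdhd bind coenzyme Q. Sdhc had 617, 288 and 332 CPM in control 5w, 162, 238 and 306 in HFpEF, 279, 267 and 311 in control 9w, 582, 201 and 462 in untreated, 420.0 and 316 in EMPA, 552 and 553 in PFD and 619.7, 765 and 625 in EMPA + PFD. Sdhd had 868, 369.8 and 410.2 CPM in control 5w, 166, 309 and 350.0 in HFpEF, 356, 347 and 387 in control 9w, 770.0, 225 and 575 in untreated, 498 and 355 in EMPA, 689.8 and 714 in PFD and 789.8, 917 and 859 in EMPA + PFD. For both, control 5w 1 and untreated 1 were near the levels of EMPA + PFD and untreated 2 lay between HFpEF 1 and HFpEF 2. Against HFpEF, EMPA + PFD was higher by 1.51 for Sdhc (standard error 0.35, adjusted p = 0.00373) and by 1.64 for Sdhd (standard error 0.40, adjusted p = 0.00510). In HFpEF minus control 5w neither passed, with -0.81 for Sdhc (adjusted p = 0.107). The ratio of Sdha to Sdhb counts was 1.53, 2.17 and 2.29 in control 5w, 1.27, 0.866 and 0.891 in HFpEF, 0.796, 0.596 and 0.986 in control 9w, 1.34, 1.41 and 1.13 in untreated and 1.33, 1.90 and 1.68 in EMPA + PFD. Control 5w and EMPA + PFD lay above HFpEF and control 9w without overlap, and the log2 ratio of HFpEF minus control 5w was -0.98 (exact two-sided permutation p = 0.1).

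In complex III, Uqcrc1 and Uqcrc2 are the large core proteins, Cyc1 is cytochrome c1 and Uqcrfs1 the Rieske iron-sulfur protein. Uqcrc2 had 1530.0, 799.7 and 899.8 CPM in control 5w, 275, 378 and 542 in HFpEF, 410.3, 405 and 499 in control 9w, 1244, 311 and 891 in untreated, 794 and 628 in EMPA, 1163 and 1349 in PFD and 1518, 1970.0 and 1873 in EMPA + PFD. HFpEF and control 9w were low, and EMPA + PFD lay above HFpEF, control 9w, untreated, EMPA and PFD. Its rise against HFpEF was 2.17 (standard error 0.40, adjusted p = 0.00116). Cyc1 had 1178, 465 and 526 CPM in control 5w, 208, 359 and 561 in HFpEF, 486, 559 and 462 in control 9w, 1011, 243 and 809.8 in untreated, 739.6 and 561 in EMPA, 985 and 993 in PFD and 1029, 1168 and 1034 in EMPA + PFD. Control 5w overlapped with HFpEF through HFpEF 3, and EMPA + PFD lay above both HFpEF and control 9w. It rose by 1.52 (standard error 0.46, adjusted p = 0.0153), a call lost without HFpEF 1 (1.23, adjusted p = 0.0651). Uqcrfs1 rose by 1.65 and Uqcrc1 by 1.59, the latter not without HFpEF 1 (1.32, adjusted p = 0.0516), and Uqcrh, the hinge protein, by 0.86, which was lost without HFpEF 1 (0.67), HFpEF 2 (0.85), EMPA + PFD 1 (0.87), EMPA + PFD 2 (0.85) or EMPA + PFD 3 (0.93). The small subunits Uqcr10, Uqcr11, Uqcrb and Uqcrq had values from 0.57 to 0.66 and did not pass.

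Cycs encodes cytochrome c, the mobile carrier between complexes III and IV. It had 1658, 572 and 631 CPM in control 5w, 241, 346 and 565 in HFpEF, 458, 433 and 572 in control 9w, 1040.3, 257 and 815 in untreated, 865 and 599.9 in EMPA, 1142 and 1210.3 in PFD and 1209, 1446 and 1289 in EMPA + PFD. Control 5w 1 was the highest library of all, every HFpEF library was below every control 5w library, and EMPA + PFD lay above HFpEF, control 9w, untreated and EMPA. HFpEF minus control 5w was -1.31 and did not pass (standard error 0.47, adjusted p = 0.0610). EMPA + PFD minus HFpEF was 1.77 (standard error 0.48, adjusted p = 0.00819) and EMPA + PFD minus control 9w was 1.43 (standard error 0.47, adjusted p = 0.0301). The latter call was lost without control 9w 1 (1.39), control 9w 2 (1.35), EMPA + PFD 2 (1.37) or EMPA + PFD 3 (1.46).

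Complex IV has alternative isoforms that differ between muscle and other tissues. Cox4i1, the common form of a regulatory subunit, had 1996, 1059 and 1115 CPM in control 5w, 714, 1074 and 1504 in HFpEF, 1481, 1927 and 1323 in control 9w, 2221, 763 and 2053 in untreated, 2154 and 1689.6 in EMPA, 2393 and 2222 in PFD and 2349, 2322 and 2106 in EMPA + PFD. Cox4i2, its alternative form known from lung and low oxygen, had 311, 179 and 210 counts in control 5w, 184, 423 and 305 in HFpEF, 288, 358 and 205 in control 9w, 289, 353 and 333 in untreated, 296 and 258 in EMPA, 276 and 262 in PFD and 212, 143 and 171 in EMPA + PFD. The raw counts of Cox4i2 were lowest in EMPA + PFD 2 and 3. As CPM these libraries held 17.1 and 17.9, above the 13.2 of HFpEF 1 and the 13.9 and 16.7 of control 5w 2 and 3. The ratio of Cox4i1 to Cox4i2 counts was 68.1, 76.3 and 66.7 in control 5w, 54.0, 27.7 and 55.2 in HFpEF, 45.6, 43.8 and 64.7 in control 9w, 72.8, 26.6 and 58.5 in untreated and 93.7, 136 and 118 in EMPA + PFD. EMPA + PFD lay above untreated, HFpEF and control 9w in this ratio, with a log2 difference of 1.24 from untreated and of 1.39 from HFpEF (exact two-sided permutation p = 0.1 in each, the smallest possible). HFpEF lay below control 5w without overlap, with a log2 difference of -0.69. Cox4i1 rose in EMPA + PFD against HFpEF by 1.04 (standard error 0.37, adjusted p = 0.0311) but not without HFpEF 1 (0.81), HFpEF 2 (1.03), EMPA + PFD 1 (1.03) or EMPA + PFD 2 (1.04).

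Cox5a and Cox5b, which sit on the matrix side, and Cox6b1, on the outer side, were the other called members of complex IV. They rose by 1.49 (standard error 0.45, adjusted p = 0.0146), 1.07 (standard error 0.38, adjusted p = 0.0320) and 0.94 (standard error 0.32, adjusted p = 0.0283) against HFpEF. Cox5a lost its call without HFpEF 1 (1.24). Cox5b (values from 0.79 to 1.09) and Cox6b1 (from 0.71 to 0.93) lost theirs without HFpEF 1, HFpEF 2, EMPA + PFD 1 or EMPA + PFD 2. Cox6b2, the isoform known from testis, was the only member called against the median of its complex here. It fell by 1.90 (standard error 0.62, adjusted p = 0.0220). It had few counts, with 6, 30 and 29 counts in control 5w, 67, 22 and 21 in HFpEF, 11, 6 and 9 in control 9w, 7, 17 and 4 in untreated, 12 and 17 in EMPA, 8 and 6 in PFD and 10, 8 and 2 in EMPA + PFD. HFpEF 1 had the most and EMPA + PFD 3 the fewest, and HFpEF and EMPA + PFD did not overlap. The call was lost without HFpEF 1 (log2 fold change -1.32, adjusted p = 0.119) and without EMPA + PFD 3 (-1.42, adjusted p = 0.0874). It was also lost when HFpEF and EMPA + PFD were fitted alone (-1.90, adjusted p = 0.0543) and when libraries with 0 counts of Eif2s3y were left out (-1.46, adjusted p = 0.201).

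Among the other isoforms, Cox6a2 and Cox8b are the forms of heart and skeletal muscle, and Cox6a1 and Cox8a those found in most tissues. Cox6a1 had 414, 231 and 212 CPM in control 5w, 174, 169 and 226 in HFpEF, 158, 174 and 147 in control 9w, 236, 137 and 204 in untreated, 199 and 232 in EMPA, 291 and 219 in PFD and 212, 225 and 199.8 in EMPA + PFD. Control 5w 1 was the highest library and all control 9w libraries were below all of control 5w. The ratio of Cox6a2 to Cox6a1 counts was 2.74, 2.42 and 2.95 in control 5w, 1.55, 3.23 and 3.50 in HFpEF, 4.87, 5.41 and 4.32 in control 9w, 4.15, 2.26 and 4.91 in untreated and 5.44, 4.29 and 4.01 in EMPA + PFD. Control 9w and EMPA + PFD were above control 5w and HFpEF, in that order, without overlap (exact two-sided permutation p = 0.1 in each). The ratio of Cox8b to Cox8a was 3.04, 1.26 and 1.62 in control 5w, 0.743, 4.11 and 2.96 in HFpEF, 5.22, 7.11 and 4.02 in control 9w, 4.66, 2.87 and 4.15 in untreated and 4.50, 3.41 and 3.38 in EMPA + PFD. Here control 9w lay above control 5w, and EMPA + PFD overlapped with HFpEF and untreated.

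Cox7a2l had 337, 288 and 272 CPM in control 5w, 245, 282 and 261 in HFpEF, 212, 209.7 and 234 in control 9w, 285, 212 and 262 in untreated, 247 and 269 in EMPA, 286 and 273 in PFD and 300.5, 283 and 288 in EMPA + PFD, and its whole range over the libraries was narrow. Control 9w and untreated 2 were its lowest libraries, and it was higher in EMPA + PFD than in control 9w by 0.41 (standard error 0.12, adjusted p = 0.0195). This call was lost without control 9w 1 (0.39) or control 9w 2 (0.38). The ratio of Cox7a2 to Cox7a2l counts was 0.939, 0.565 and 0.592 in control 5w, 1.47, 1.93 and 1.02 in control 9w, 1.35, 1.02 and 1.24 in untreated and 1.01, 0.906 and 0.870 in EMPA + PFD, and control 9w lay above control 5w without overlap. Cox6a2, Cox6c, Cox7a2, Cox7b, Cox7c, Cox8a and Cox8b passed in none of the comparisons. Their log2 differences between EMPA + PFD and HFpEF ran from 0.18 for Cox7a2 to 0.86 for Cox6a2.

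**Figure D3:**
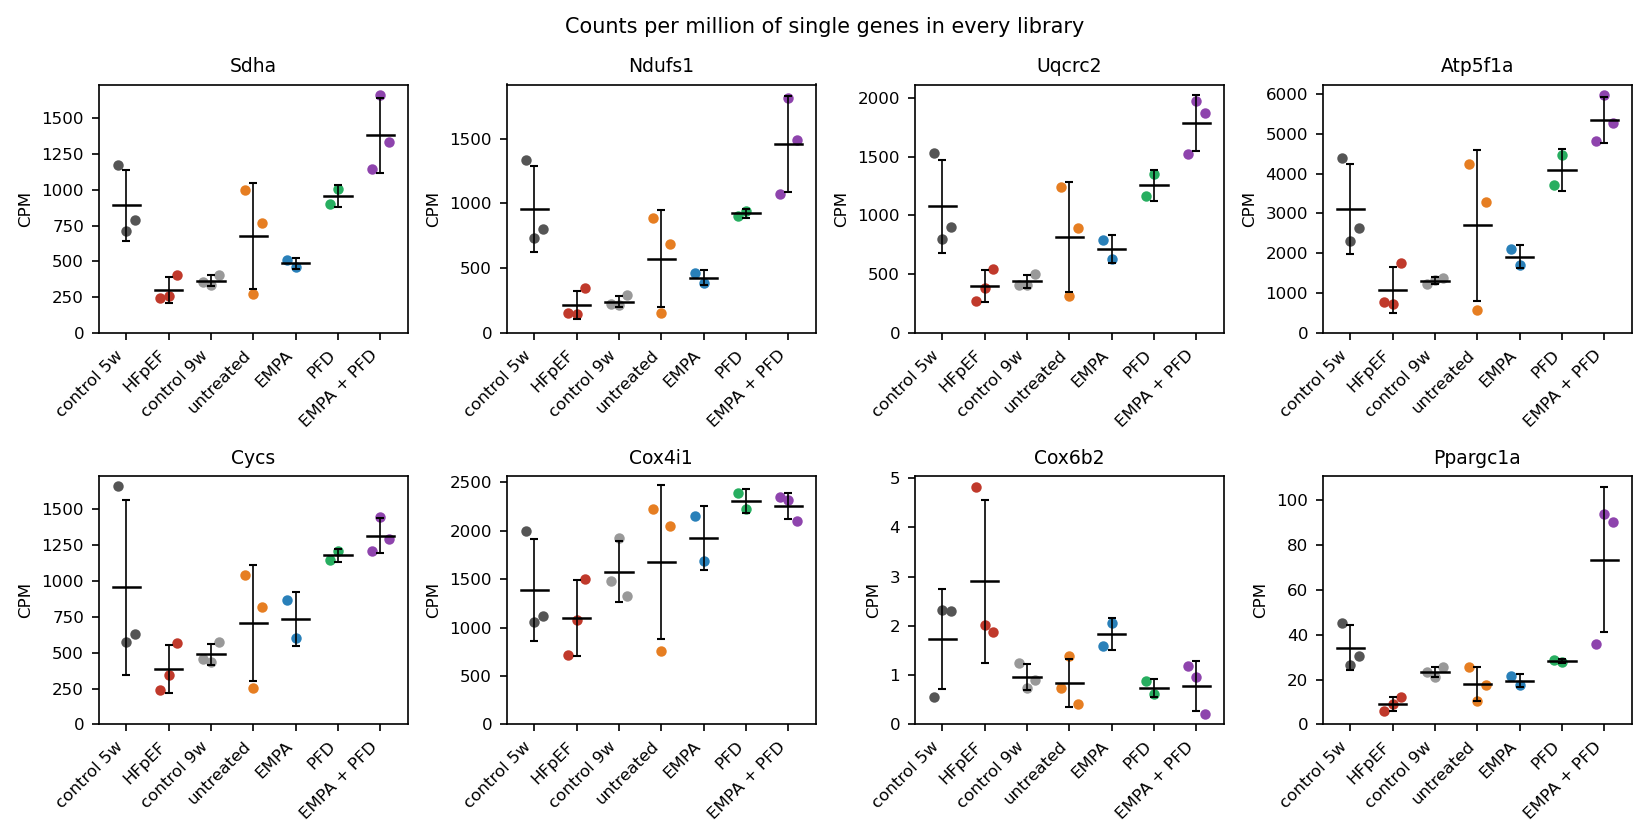
CPM (vertical axes, from 0) of 7 members and Ppargc1a in the 19 libraries of the 7 groups; points are libraries, horizontal lines group means and bars SD (n = 3, or 2 for EMPA and PFD). Sdha, Ndufs1, Uqcrc2 and Atp5f1a are low in HFpEF and control 9w and have their highest group means in EMPA + PFD, and Cox6b2 is highest in HFpEF 1.

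ATP synthase has a catalytic head of alpha and beta subunits, a central shaft with the gamma subunit, a rotating ring and a peripheral stalk. Atp5f1a, the alpha subunit, had 4388, 2304 and 2640.2 CPM in control 5w, 770.5, 723 and 1756 in HFpEF, 1215, 1327 and 1385 in control 9w, 4228, 572 and 3295 in untreated, 2114 and 1702 in EMPA, 3713 and 4461 in PFD and 4816, 5961 and 5256 in EMPA + PFD. HFpEF 1 and 2 and untreated 2 had the lowest levels, HFpEF lay wholly below control 5w, and EMPA + PFD lay above the libraries of each other group. HFpEF minus control 5w was -1.52 and did not pass (standard error 0.53, adjusted p = 0.0536), and EMPA + PFD minus HFpEF was 2.30 (standard error 0.54, adjusted p = 0.00386). Atp5pb, of the peripheral stalk, rose by 1.83 (standard error 0.42, adjusted p = 0.00332) against HFpEF, Atp5f1c, the gamma subunit, by 1.68 and Atp5f1b, the catalytic beta subunit, by 1.64. The genes for the c subunit of the ring, Atp5mc1, Atp5mc2 and Atp5mc3, rose by 1.52, 1.01 and 1.27. Atp5f1d, Atp5md and Atp5pf were also called, with 1.00, 0.88 and 1.04. Of these, Atp5mc1, Atp5mc3, Atp5f1d, Atp5md and Atp5pf were no longer called without HFpEF 1, HFpEF 2 or EMPA + PFD 2, with values from 0.68 for Atp5md without HFpEF 1 to 1.50 for Atp5mc1 without HFpEF 2. Atp5f1d (1.06), Atp5md (0.88) and Atp5pf (1.05) also lost their calls without EMPA + PFD 1, Atp5f1d (1.05) and Atp5md (0.91) without EMPA + PFD 3, and Atp5f1d (1.00) without control 9w 1. Atp5mc2 lost its call when libraries with 0 counts of Eif2s3y were left out (0.94, adjusted p = 0.0592).

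The other 7 members of complex V, Atp5f1e, Atp5if1, Atp5me, Atp5mf, Atp5mg, Atp5pd and Atp5po, had differences from 0.091 for Atp5if1 to 0.86 for Atp5po and did not pass. Atp5po, of the stalk, and Atp5f1d, of the central shaft, were with Ndufb11 the members that kept closest to the median of all members, with SDs of 0.0789 and 0.0908 log2 units. The members that moved most apart from that median were Cox6b2 (1.30), Ndufa10l1 (1.13) and Ndufs1 (0.882). Atp5po had 1146, 492 and 545 CPM in control 5w, 318, 618 and 738 in HFpEF, 1037, 434 and 955 in untreated and 1004, 1079.6 and 948 in EMPA + PFD, with HFpEF 1 and untreated 2 as its low libraries.

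Assembly factors help to build the complexes but are not part of them. Of 16 listed for complex I, 13 were tested, and 4 passed in HFpEF against control 5w, all lower (median -0.55). Against untreated, 2 passed with EMPA + PFD, both higher, and against HFpEF 9 were higher. Of all genes, 10.2% were lower and 9.83% higher in HFpEF, 12.1% were called against untreated, and 22.3% were higher and 24.5% lower than in HFpEF with EMPA + PFD. Ndufaf1, an assembly factor of the membrane arm, had 52.7, 33.2 and 30.3 CPM in control 5w, 12.3, 9.90 and 16.7 in HFpEF, 10.7, 9.35 and 16.3 in control 9w, 28.6, 8.77 and 23.0 in untreated and 48.4, 60.5 and 56.3 in EMPA + PFD. HFpEF and control 9w lay below control 5w, and EMPA + PFD above untreated, without overlap. It fell by 1.58 in HFpEF (standard error 0.35, adjusted p = 0.00839) and rose by 1.46 with EMPA + PFD (standard error 0.34, adjusted p = 0.0206). Ndufaf6 and Ndufaf4 fell by 1.77 and 0.91 in HFpEF (adjusted p = 0.00962 and 0.0285), and Ndufaf7, a methyltransferase, rose by 0.68 with EMPA + PFD (adjusted p = 0.0494). Ndufaf1 kept its fall under every alternative and lost its rise without untreated 2 (1.09), EMPA + PFD 2 (1.40) or EMPA + PFD 3 (1.47). Ndufaf4 was no longer called without control 5w 1 (-0.56), HFpEF 1 (-0.87) or HFpEF 2 (-0.84). When control 5w and HFpEF were fitted alone, Ndufaf6 (-1.77) and Ndufaf4 (-0.91) were not called, nor were they without the libraries with 0 counts of Eif2s3y (-1.24 for Ndufaf6, and adjusted p = 0.0640 for Ndufaf4). The rise of Ndufaf1 was lost when untreated and EMPA + PFD were fitted alone (1.45) and without the libraries rich in Sln (1.09), and Ndufaf7 lost its call in 19 of 25 alternatives, with values down to 0.52 without untreated 2.

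For complexes II to V, 30 of 36 listed factors were tested, and 8 were lower and 1 higher in HFpEF (median -0.43). With EMPA + PFD 4 passed against untreated, all higher, and 18 were higher and 1 lower than in HFpEF. The shares of all genes were 10.2% and 9.83% in HFpEF, 12.1% against untreated in either direction, and 22.3% and 24.5% against HFpEF. Atpaf1, a chaperone of the ATP synthase head, fell by 1.11 in HFpEF (standard error 0.23, adjusted p = 0.00684) and rose by 1.06 with EMPA + PFD (standard error 0.23, adjusted p = 0.0150). Its levels were 62.6, 36.7 and 43.8 CPM in control 5w, 18.3, 23.3 and 24.8 in HFpEF, 43.0, 22.0 and 34.1 in untreated and 59.2, 71.1 and 76.7 in EMPA + PFD. HFpEF lay below control 5w, and EMPA + PFD above untreated, without overlap. Sdhaf2, which attaches the flavin to Sdha, rose by 1.00 with EMPA + PFD (adjusted p = 0.0295) and Ttc19, of complex III, by 0.76 (adjusted p = 0.0360). In HFpEF, Bcs1l, which inserts the Rieske protein, fell by 0.87, and Taco1, a translation activator for complex IV, by 1.51 (adjusted p = 0.0123 and 0.0142), while Cmc1, of complex IV assembly, rose by 0.98 (adjusted p = 0.0143). The rises with EMPA + PFD rested on few libraries. Atpaf1 lost its call there without untreated 2 (0.84), EMPA + PFD 2 (1.06) or EMPA + PFD 3 (1.00), Sdhaf2 without untreated 2 (0.72), untreated 3 (1.04), EMPA + PFD 2 (0.91) or EMPA + PFD 3 (1.05) and Ttc19 without control 9w 1 (0.76), untreated 2 (0.54), untreated 3 (0.77), EMPA + PFD 2 (0.71) or EMPA + PFD 3 (0.75). In HFpEF, Taco1 lost its call without control 5w 1 (-1.13) and Cmc1 without control 5w 3 (0.82). With control 5w and HFpEF fitted alone, Atpaf1 (-1.10), Bcs1l (-0.87), Taco1 (-1.51) and Cmc1 (0.99) lost their calls, and Atpaf1 (-0.97), Taco1 (-1.23) and Cmc1 (1.08) lost them without the libraries with 0 counts of Eif2s3y. The rises of Atpaf1, Sdhaf2 and Ttc19 against untreated were lost when both groups were fitted alone (1.05, 0.98 and 0.74) and without the libraries rich in Sln (0.84, 0.72 and 0.54).

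Coenzyme Q synthesis, heme attachment and ATP export serve the chain from outside the complexes. Of 23 listed genes 21 were tested, 4 passed in HFpEF, all lower (median -0.78), 1 was higher with EMPA + PFD than in untreated, and 16 were higher and 1 lower than in HFpEF. Beside these stand 10.2% of all genes lower in HFpEF, 12.1% called against untreated, and 22.3% higher and 24.5% lower than HFpEF. Hccs, which attaches heme to cytochrome c, fell by 1.58 in HFpEF (standard error 0.36, adjusted p = 0.00961). Vdac1 and Vdac2, channels of the outer membrane, fell by 1.27 and 0.90 (adjusted p = 0.0364 and 0.0362). Coq6, an enzyme of coenzyme Q synthesis, rose by 0.72 with EMPA + PFD (adjusted p = 0.0280). Hccs kept its call under every alternative. Vdac1 lost it without control 5w 1 (-0.90), control 5w 3 (-1.39), HFpEF 1 (-1.08) or HFpEF 2 (-1.19), Vdac2 without control 5w 1 (-0.52), HFpEF 1 (-0.80) or HFpEF 2 (-0.84) and Coq6 without untreated 2 (0.55), untreated 3 (0.80), EMPA + PFD 2 (0.64) or EMPA + PFD 3 (0.74). In fits of the compared groups alone, Vdac1 (-1.27), Vdac2 (-0.90) and Coq6 (0.71) were not called. Vdac2 lost its call without libraries with 0 counts of Eif2s3y (-0.97) and Coq6 without those rich in Sln (0.55). Of 28 names searched for complex subunits outside the symbol rule, most were mitochondrial DNA genes in different spellings, and 1 name was found. It was Ndufab1, the acyl carrier protein in complex I, which rose by 1.14 in EMPA + PFD against HFpEF (standard error 0.42, adjusted p = 0.0381). That call was lost without HFpEF 1 (0.86), HFpEF 2 (1.16), EMPA + PFD 1 (1.16), EMPA + PFD 2 (1.12) or EMPA + PFD 3 (1.20), with the replicate number as a block (1.13), and without the libraries with 0 counts of Eif2s3y (1.02).

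Of 26 regulators and factors of mitochondrial transcription, all tested, 4 passed in HFpEF against control 5w, all lower, and 4 were lower and 3 higher in control 9w. The disease effect differed between weeks for 6, all higher at week 9, where 9.76% of all genes were called higher and 10.2% lower. Esrra was among these and lost that call in 20 of 25 alternatives. With EMPA + PFD 5 passed against untreated, all higher, and there were 13 higher and 1 lower than HFpEF, and 10 higher and 2 lower than control 9w. In all genes the shares were 10.2% lower in HFpEF, 17.2% lower and 17.3% higher in control 9w, 12.1% called against untreated, 22.3% higher and 24.5% lower than HFpEF, and 17.1% higher and 16.6% lower than control 9w. The medians for the list were -0.27 in HFpEF and 0.37 with EMPA + PFD against untreated.

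Ppargc1a encodes the coactivator PGC-1alpha. It had 45.4, 26.5 and 30.7 CPM in control 5w, 6.03, 9.08 and 12.3 in HFpEF, 23.2, 21.3 and 25.5 in control 9w, 25.5, 10.4 and 17.7 in untreated, 21.4 and 17.4 in EMPA, 28.9 and 27.8 in PFD and 36.1, 94.0 and 90.3 in EMPA + PFD. All HFpEF libraries were below those of control 5w and of control 9w, and EMPA + PFD lay above untreated in each library and was highest in replicates 2 and 3. It fell by 1.91 in HFpEF (standard error 0.38, adjusted p = 0.00523) and was higher in EMPA + PFD by 2.04 against untreated (standard error 0.37, adjusted p = 0.00883) and by 3.01 against HFpEF (standard error 0.39, adjusted p = 0.000188). Its fall and its rise against HFpEF kept their calls under every alternative. The rise against untreated kept its call without any single library but lost it when untreated and EMPA + PFD were fitted alone (2.03) and without the 3 libraries rich in Sln (1.76). Its relative Ppargc1b rose by 1.56 against HFpEF (adjusted p = 0.00328) and had 1.06 against untreated, which did not pass (adjusted p = 0.0579).

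Of the estrogen-related receptors, Esrrg had 35.4, 28.9 and 26.3 CPM in control 5w, 6.17, 7.52 and 8.57 in HFpEF, 14.1, 12.8 and 15.9 in control 9w, 22.2, 7.63 and 18.2 in untreated and 31.9, 60.0 and 50.2 in EMPA + PFD, fell by 2.03 in HFpEF (standard error 0.31, adjusted p = 0.00127) and rose by 1.57 with EMPA + PFD (standard error 0.30, adjusted p = 0.0107). Esrrb fell by 3.05 in HFpEF (adjusted p = 0.00178) and rose by 2.01 with EMPA + PFD (adjusted p = 0.0183). For both, HFpEF lay below control 5w and EMPA + PFD above untreated without overlap. The rise of Esrrg lost its call without EMPA + PFD 2 (1.38) and that of Esrrb without untreated 2 (1.61), EMPA + PFD 2 (1.79) or EMPA + PFD 3 (2.02). Both rises were lost when untreated and EMPA + PFD were fitted alone (1.56 for Esrrg and 2.00 for Esrrb) and without the libraries rich in Sln (1.23 and 1.61). Esrra rose by 1.25 against HFpEF and by 1.08 against control 9w (adjusted p = 0.00416 and 0.0126), but its 0.67 against untreated did not pass (adjusted p = 0.128). Without the libraries rich in Sln, control 9w 2 alone stood for its group, and the value of Esrra against control 9w was 0.93. Ppara, the receptor that drives fatty acid oxidation genes, fell by 2.17 in HFpEF (adjusted p = 0.00283), but not when control 5w and HFpEF were fitted alone (-2.17, adjusted p = 0.0545). Tfam, which packs and transcribes mitochondrial DNA, rose by 0.90 against HFpEF and 0.95 against control 9w (adjusted p = 0.00280 and 0.00340). Nrf1 and Gabpa, the factors NRF-1 and GABP alpha, passed in none of the comparisons, with 0.055 and -0.078 in HFpEF and -0.10 and 0.11 in EMPA + PFD against HFpEF.

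The promoters of the members were read for letters that such factors are known to bind, since many members were called in the same direction in EMPA + PFD against HFpEF. RefSeq of the GRCr8 assembly gave a window of 250 bases before and 50 after the start for 71 of the 84 genes, while the counts were made on rn6. CCGGAAG, of ETS factors such as GABP, was found on either strand in 20 of 71 member promoters (28.2%), 8.75% of the 33469 promoters in the table and 16.8% of the 9760 that belong to genes tested here. GCGCATGCG, of NRF-1, was in 7 of 71 member promoters (9.86%), 1.52% of the 33469 promoters in the table and 3.09% of the 9760 that belong to genes tested here. This word is nearly its own reverse complement, so matches on both strands can overlap at a place. AAGATGGCG, of YY1, was in 10 of 71 member promoters (14.1%), 1.73% of the 33469 promoters in the table and 3.53% of the 9760 that belong to genes tested here. TCAAGGTCA, of the estrogen-related receptors, was in 2 of 71 member promoters (2.82%), 0.433% of the 33469 promoters in the table and 0.256% of the 9760 that belong to genes tested here. At least 1 of the first 3 words was in 31 of 71 member promoters (43.7%), 11.3% of the 33469 promoters in the table and 21.6% of the 9760 that belong to genes tested here. No test was made, and a match is a run of letters, not a bound site.

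By complex, the ETS word was in 7 of 32 promoters of complex I, 2 of 4 of complex II, 3 of 6 of complex III, 4 of 13 of complex IV and 4 of 15 of complex V. The NRF-1 word was in the Cycs promoter and in 4 promoters of complex V, 1 of complex I and 1 of complex III, and the YY1 word in 7 of complex I, 2 of complex V and 1 of complex III. The promoter of Sdha held none of the 4 words. Shown are promoters of genes from 4 parts of the chain that were called in EMPA + PFD against HFpEF under every alternative, from RefSeq GRCr8, 5′ to 3′ on the strand of the gene, with the matched words in capitals, all of which lie on the other strand and are thus read backwards as their complement. They are Ndufs1 (chr9:72073556-72073855, minus strand, 1 ETS match), Uqcrc2 (chr1:184598990-184599289, plus strand, 2 ETS matches), Sdhd (chr8:59850592-59850891, minus strand, 2 ETS matches and an estrogen-related receptor match) and Cycs (chr4:80984718-80985017, minus strand, 1 NRF-1 match).
Ndufs1: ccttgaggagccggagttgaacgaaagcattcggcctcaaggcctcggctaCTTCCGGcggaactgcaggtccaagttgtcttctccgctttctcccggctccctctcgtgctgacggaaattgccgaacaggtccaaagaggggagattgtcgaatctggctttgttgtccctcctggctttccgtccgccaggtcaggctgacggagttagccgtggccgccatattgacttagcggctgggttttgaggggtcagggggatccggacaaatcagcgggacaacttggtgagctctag
Uqcrc2: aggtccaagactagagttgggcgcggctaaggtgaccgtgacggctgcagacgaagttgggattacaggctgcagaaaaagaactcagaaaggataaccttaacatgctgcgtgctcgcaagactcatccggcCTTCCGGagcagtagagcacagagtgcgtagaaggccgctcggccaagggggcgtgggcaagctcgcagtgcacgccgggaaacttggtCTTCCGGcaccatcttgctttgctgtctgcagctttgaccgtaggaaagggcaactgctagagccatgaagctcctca
Sdhd: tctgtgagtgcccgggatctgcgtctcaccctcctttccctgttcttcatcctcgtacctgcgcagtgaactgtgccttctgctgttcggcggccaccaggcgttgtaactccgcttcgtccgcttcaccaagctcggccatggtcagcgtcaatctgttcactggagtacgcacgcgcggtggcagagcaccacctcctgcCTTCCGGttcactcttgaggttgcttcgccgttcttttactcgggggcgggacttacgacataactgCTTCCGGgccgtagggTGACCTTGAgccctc
Cycs: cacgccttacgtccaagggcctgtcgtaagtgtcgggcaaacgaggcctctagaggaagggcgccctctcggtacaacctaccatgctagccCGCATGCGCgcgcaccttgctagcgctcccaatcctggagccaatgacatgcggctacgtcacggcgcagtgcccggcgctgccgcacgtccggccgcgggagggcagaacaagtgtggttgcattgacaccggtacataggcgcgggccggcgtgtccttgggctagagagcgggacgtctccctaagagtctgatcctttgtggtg

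Some members share their place in the genome with other genes, which matters because the strand setting of the counting is not known. In the GRCr8 gene table, Uqcrc2 overlaps Pdzd9, Atp5pf overlaps Gabpa, Ndufs3 overlaps Kbtbd4, Ndufs6 overlaps Mrpl36, Ndufb5 overlaps Mrpl47, Ndufa4l2 overlaps Shmt2, Ndufa2 overlaps Tmco6, Uqcrq overlaps Gdf9, Cox8a overlaps Macrod1, Cox7a2 overlaps Tmem30a and Atp5f1d overlaps Cbarp, all genes that were counted too. Of the members that kept their calls in EMPA + PFD against HFpEF, Uqcrc2 is in this list, and the part of reads from the other gene was not tested.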

How the data were processed

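Gene counts of 19 rat left ventricle libraries were used as the authors deposited them. The authors trimmed reads with Trim Galore, checked them with FastQC, aligned them to rn6 with HISAT2 and counted them per gene with htseq-count. The sources used do not state which overlap mode, strand and annotation release the counting relied on. Genes passing filterByExpr were normalized with TMM and tested, two-sided, with edgeR's quasi-likelihood F test (edgeR 4.0.16, limma 3.58.1, R 4.3.3) in one model of 7 groups, and p-values were adjusted by the Benjamini-Hochberg method over 12388 genes. A gene counted as called at an adjusted p under 0.05, and the stricter rule also asked for a 2-fold change. Library totals ran from 7430539 to 13017754 counts, and with 2 or 3 libraries per group the spread between libraries sets the precision. The test set each difference against a spread estimated over all 7 groups together. The adjusted p-values are thus no measure of the spread within the compared groups alone.

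Ratios of counts between subunits were compared by exact two-sided permutation tests over libraries. Alternatives were RLE normalization, no expression filter, DESeq2 1.42.0, replicate number as a block, fits of the compared groups alone, omission of each library in turn, omission of the 7 libraries with 0 counts of Eif2s3y and omission of the 3 libraries with over 1000 counts of Sln. The code was tested on simulated data. Named genes were the 3 called members with the smallest adjusted p per direction in 5 comparisons, members called against the median of their complex, all of complex II, the isoforms of complex IV, Cycs and Cyc1, the 3 members most and least apart from the member median, up to 3 called genes per list of assembly factors, carriers and regulators, and 6 regulators. The members, lists and markers were chosen with earlier results of these data known. Mitochondrial DNA genes are not members by definition, and none was found among the genes counted under the names searched. 1 member enters the counts and medians but is not reported here by itself.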

Additional observations from a re-analysis of the deposited data

Results flagged for a closer look

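In 5 members the difference between induced and control rats was not the same at weeks 9 and 5, by the interaction term of the edgeR model with p-values adjusted over all tested genes. As log2 differences of the week 9 effect minus the week 5 effect, the values were 4.31 for Ndufa10l1 (standard error 0.72, adjusted p = 0.00231) and 3.39 for Ndufs1 (standard error 0.69, adjusted p = 0.00570). For Sdha the value was 2.47 (standard error 0.51, adjusted p = 0.00597), for Uqcrc2 2.33 (standard error 0.55, adjusted p = 0.0115) and for Atp5f1a 2.57 (standard error 0.74, adjusted p = 0.0256). Of all genes 9.76% were called higher and 10.2% lower by this term. Atp5f1a lost its call in 8 of 25 alternatives.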

How the results depend on the processing

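For the called genes named in the text, 2847 values were recomputed under the alternatives. Of these, 2512 kept their direction and their call, 335 kept the direction but lost the call, and 0 changed direction. These genes were picked as called in these same data. The values include the 2-fold rule, which reuses the main differences and so cannot change a direction. Members that were not called did change direction in some settings. This held for 7 of 987 values in EMPA + PFD against HFpEF and for 214 of 2050 in EMPA against untreated. Where called members are counted, these numbers changed by over 1.5 times in some settings, and the cause was not tested.

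With DESeq2 the count was 7 in place of 4 for HFpEF against control 5w, 11 in place of 5 for the interaction of disease and week, 2 in place of 0 for untreated against HFpEF, 3 in place of 0 for EMPA + PFD against untreated, and 24 in place of 11 for any group. DESeq2 called more of all genes as well, with 26.0%, 25.9%, 7.75%, 20.4% and 64.1% in these comparisons. Leaving out the 7 libraries with 0 counts of Eif2s3y gave 11 in place of 6 for control 9w against control 5w, 22 in place of 44 for EMPA + PFD against HFpEF, and 19 in place of 11 for any remaining group. A fit of EMPA + PFD and control 9w alone gave 39 in place of 15. Leaving out the 3 libraries rich in Sln, an alternative chosen after seeing the data, gave 8 for HFpEF against control 5w and 15 for untreated against HFpEF. Shares of all genes do not stand beside these counts, so they are no result about the members alone. Control 9w 2 alone then stood for its group. Counts are thus not given for the interaction of disease and week, EMPA + PFD against control 9w or any group.

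Leaving out single libraries also moved the share of all genes called, as given above for several fits. The ranges that follow are thus no result about the members alone. Leaving out each library in turn gave 3 to 18 called members for control 9w against control 5w and 3 to 13 for HFpEF against control 5w. It gave 0 to 6 for untreated against control 9w, 4 to 27 for the interaction of disease and week, and 0 to 28 for untreated against HFpEF. The ranges were 0 to 5 for EMPA + PFD against untreated, 17 to 55 for EMPA + PFD against HFpEF, 7 to 22 for EMPA + PFD against control 9w and 5 to 34 for any group. For EMPA and PFD against untreated and for the interaction of the drugs the count was 0 in every setting. A lone library left in a group of EMPA or PFD was taken to vary like the other groups.

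With the replicate number as a block (replicate block), the counts were 6 for control 9w against control 5w, 4 for HFpEF against control 5w and 5 for the interaction of disease and week. They were 38 for EMPA + PFD against HFpEF, 14 for EMPA + PFD against control 9w, 10 for any group and 0 for the rest. The shares of all genes called under the block are not given here, so these counts are no result about the members alone. Nothing in the labels says that libraries were paired, and libraries of the same number had a mean correlation of -0.0490 over 52 pairs, against 0.0223 over 102 other pairs. RLE in place of TMM moved the median of all genes by at most 0.026 log2 units. All untreated and PFD libraries had 0 counts of Eif2s3y, so leaving out such libraries was not possible in any comparison with those groups. EMPA against untreated, EMPA + PFD against untreated and the interaction of the drugs are among these.

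Depth limits few of the 82 tested members. Cox6b2, Ndufa1 and Ndufs6 had fewer than 100 counts in every library, and Cox6b2 and Ndufs6 had as few as 2 in some. The strand setting, the sharing of reads by like genes and the mix of cells in each sample limit what a level means, and in EMPA + PFD against HFpEF the drugs, the 4 further weeks and the split of RT1-CE16 counts cannot be told apart.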
